A study of Peromyscus maniculatus with 6 samples.

Results

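ER-associated degradation (ERAD) is the route by which misfolded proteins leave the endoplasmic reticulum (ER) and are destroyed. Mannose trimming and lectins mark a misfolded glycoprotein, a ubiquitin ligase complex in the ER membrane takes it up, ubiquitin-conjugating enzymes tag it, and the ATPase VCP pulls it into the cytosol for the proteasome. Several genes of this route are known targets of the unfolded protein response, the transcriptional programme that an overloaded ER sets off, and secretory cells such as fibroblasts depend on the route for quality control of matrix proteins.

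The genes described here were chosen by symbol, from a list of 39 symbols that stand for 35 genes, 4 of which are listed under an older and a newer name. The deposited table names 31 of the 35, out of 24281 genes in all. Edem1, Derl3, March6 (also Marchf6) and Ubxn4 are not named in it and were not analysed here. All 31 passed the filter on low counts. Their raw counts ran from 601 (Erlin2) to 46848 (Vcp) per library. The genes fall into recognition (5), the membrane ligase complex (14), ubiquitin enzymes (6) and extraction (6).

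The cells were primary fibroblasts of the BW stock of deer mouse (Peromyscus maniculatus), cultured from ear punches of the 4-week-old animals BW35770, BW35772 and BW35773. Each animal gave 1 culture, with 1 control library and 1 library from cells kept for 5 h in tunicamycin, an inhibitor of the first step of N-linked glycosylation that causes unglycosylated proteins to build up in the ER. The labels give its concentration as 5 mg per mL, a value that could not be checked, and name no vehicle for the control wells. Libraries held 37852385 to 49352126 counts on genes. In such bulk RNA, fewer cells of a type and less RNA per cell cannot be told apart.

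Markers and known stress genes were read as a check of the labels. The summed level of 9 fibroblast markers was 15353 to 21539 CPM (TMM-scaled counts per 1e6 reads on genes) in control libraries and 15787 to 20729 CPM with tunicamycin. Vim alone made up 7494 to 9763 CPM of this sum. Cartilage markers were also present, at a sum of 1867 to 8342 CPM in controls and 2073 to 8877 CPM with tunicamycin, and their part in the results was not tested. The animals differed in these markers. In the controls of BW35770, BW35772 and BW35773 Col2a1 was at 743, 5999 and 4538 CPM and Col1a1 at 1107, 2857 and 2708 CPM. Thy1 was at 752, 85.2 and 118 CPM there. Among keratinocyte markers 5 of the 6 that the table names stayed below 1 CPM in every library, and their sum was at most 23.1 CPM. Of 6 immune cell markers 4 stayed below 1 CPM, among them Ptprc, the pan-leukocyte marker, while Cd68 was present and the list summed to 69.9 to 181 CPM. Lists of endothelial, muscle, melanocyte, Schwann cell and adipocyte markers each summed to at most 127 CPM. The edgeR test called 0 markers of these 9 lists. Hspa5, which encodes the ER chaperone BiP, lay at 1327, 1759 and 1443 CPM in the controls of BW35770, BW35772 and BW35773 and at 4250, 3983 and 4334 CPM in the treated libraries. Ddit3, the stress-induced factor CHOP, rose from 22.1 ± 2.38 to 340.9 ± 95.5 CPM (SD, n = 3; log2 fold change 3.95 ± 0.23 SE, edgeR adjusted p = 0.000488).

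Of the 31 ERAD genes 2 rose and 0 fell with tunicamycin (edgeR quasi-likelihood test, adjusted p under 0.05). Both encode the core of the same ligase complex, Syvn1 and Sel1l. Over all 13503 tested genes the same test called 1.78% higher and 0.792% lower. With the animal as a block the members' counts were again 2 and 0, against 3.07% and 2.4% of all genes, and DESeq2 called 3 and 0, against 5.01% and 2.97%. An unadjusted edgeR p under 0.05 was reached by 6 members with higher and 0 with lower levels, beside 8.88% and 6.64% of all tested genes. The median log2 fold change was 0.079 over the 31 members and -0.010 over all tested genes. For 29 members the 95% interval of the log2 fold change lay between -1 and 1, which was so for 8612 of all 13503 tested genes. The members' intervals were also narrower, with a median half-width of 0.31 against 0.495 over all tested genes.

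**Figure D1:**
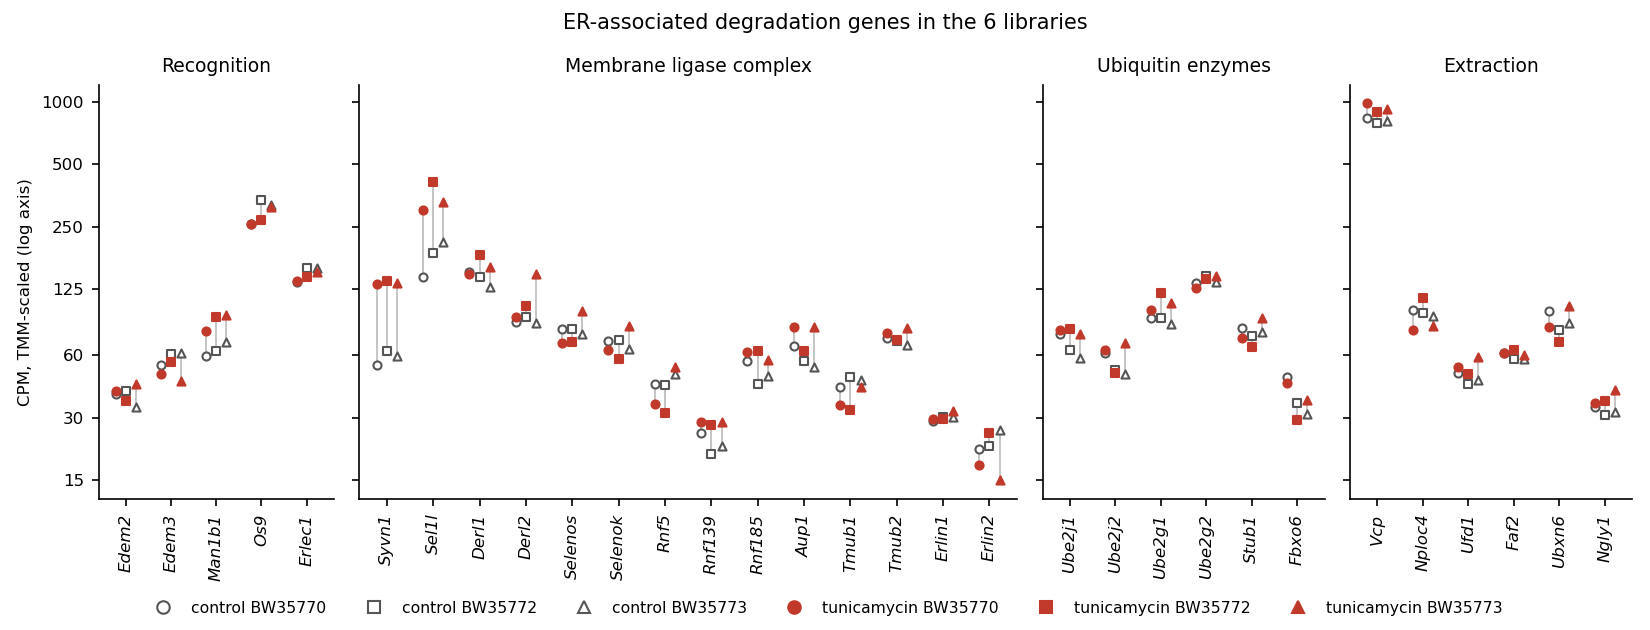
Level of each of the 31 ERAD genes in CPM (log axis) in the 6 libraries, grouped by step. Open symbols are control and filled symbols tunicamycin libraries, the shape gives the animal, and a grey line joins the pair. Syvn1 and Sel1l are among the 9 members whose treated libraries all lie above the controls, and Tmub1 is the only member with all below. Vcp lies far above the other genes in raw level.

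The ligase core held the members with the largest log2 fold changes. Syvn1 encodes HRD1, the membrane-bound ubiquitin ligase that also forms the channel through which substrates leave the ER (ENSPEMG00000004066, scaffold KI615462.1, bases 3183561 to 3190405, plus strand, 16 exons). In animals BW35770, BW35772 and BW35773 it stood at 53.9, 62.8 and 59.8 CPM in controls and at 132.0, 137.3 and 133.5 CPM with tunicamycin. The groups did not overlap, and the treated libraries lay closer to each other than the controls did. The mean went from 58.8 ± 4.54 to 134.3 ± 2.72 CPM (SD, n = 3), a 2.28-fold rise with a 95% interval of 1.92 to 2.72 (log2 fold change 1.19 ± 0.11 SE, edgeR adjusted p = 0.00221). Differences within the pairs were 1.29, 1.13 and 1.16 on the log2 scale. Syvn1 kept its call in each of 6 fits that left out 1 library (edgeR adjusted p = 0.00882 to 0.0295). It shares 88 exon bases with an unnamed gene on the opposite strand, ENSPEMG00000018571, whose mean was 50.01 CPM without and 44.5 CPM under tunicamycin (log2 fold change -0.17 ± 0.19 SE, edgeR adjusted p = 0.783).

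Sel1l encodes the adaptor that holds HRD1 stable and hands substrates to it (ENSPEMG00000020699, scaffold KI615641.1, bases 1146415 to 1194880, plus strand, 21 exons). Control libraries of BW35770, BW35772 and BW35773 had 142.7, 188.0 and 211.2 CPM, and treated libraries 301.6, 410.2 and 330.6 CPM. The lowest treated library thus lay above the highest control, but the controls alone spanned a 1.48-fold range. Sel1l went from 180.6 ± 34.9 to 347.5 ± 56.2 CPM (SD, n = 3), a 1.92-fold rise with a 95% interval of 1.43 to 2.59 (log2 fold change 0.94 ± 0.19 SE, edgeR adjusted p = 0.0462). Its differences within the pairs were 1.08, 1.13 and 0.65, the smallest in BW35773. The unpaired call did not survive the loss of any single library: the edgeR adjusted p in those 6 fits lay between 0.0617 and 0.198, with log2 fold changes of 0.80 to 1.07. Over all tested genes those 6 fits called 46 to 313 higher, against 241 with all libraries. With the replicate block the edgeR adjusted p of Sel1l was 0.0102 over all libraries. It was 0.164, 0.000597 and 0.00237 without animals BW35770, BW35772 and BW35773.

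The balance of the pair was also read within each library, per kilobase of annotated exon. Sel1l exceeded Syvn1 by a ratio of 1.25, 1.41 and 1.67 in the controls of BW35770, BW35772 and BW35773, and of 1.078, 1.41 and 1.17 in their treated libraries. It was lower with tunicamycin in all 3 pairs, by least in BW35772 (1.412 against 1.410), while the ranges of the groups overlap. The ratio of Syvn1 to Derl1, a derlin of the same complex, was 0.364, 0.448 and 0.475 in controls and 0.913, 0.765 and 0.858 with tunicamycin, ranges that do not overlap. Syvn1 was itself called higher, so this difference is not separate from that call. With 3 libraries a side an exact two-sided permutation test cannot give a p below 0.1, so no test is given for these ratios.

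Derlins are rhomboid-like membrane proteins that thin the membrane beside HRD1. Derl1 went from 141.3 ± 11.4 to 163.7 ± 18.2 CPM and was not called (log2 fold change 0.21 ± 0.13 SE, edgeR adjusted p = 0.502). Derl2 lay at 86.8, 92.1 and 86.0 CPM in the controls of BW35770, BW35772 and BW35773 and at 91.6, 104.2 and 148.5 CPM in the treated libraries. Only the treated library of BW35773 was far above its control, with a difference of 0.79 on the log2 scale against 0.077 and 0.18 in the other animals. Its log2 fold change of 0.38 ± 0.18 SE was not called (edgeR adjusted p = 0.382). The selenoproteins Selenos and Selenok, which bind derlins and help recruit VCP, had log2 fold changes of -0.0055 and -0.010. In both, the pairs went in different directions: Selenos differed by -0.23, -0.21 and 0.36 and Selenok by -0.14, -0.31 and 0.37 in BW35770, BW35772 and BW35773.

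Other membrane ligases were not called. Rnf139, also known as TRC8 and linked to sterol-regulated degradation, had 25.4, 20.03 and 21.9 CPM in controls and 28.6, 27.7 and 28.7 CPM with tunicamycin, in the same order of animals. The groups were apart, but the log2 fold change of 0.34 ± 0.14 SE gave an edgeR adjusted p of 0.294. Rnf185 had a log2 fold change of 0.30 ± 0.13 SE, and its relative Rnf5, with which it shares the role of an ER membrane ligase, had -0.19 ± 0.20 SE (edgeR adjusted p = 0.333 and 0.762). Rnf5 shares 473 exon bases with Ager on the opposite strand, a gene with 147 counts over all libraries against 10686 for Rnf5.

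Among the scaffolds of the membrane complexes, Aup1, which brings the conjugating enzyme UBE2G2 to ER ligases, was at 66.3, 56.3 and 52.5 CPM in controls and 81.9, 62.9 and 82.5 CPM with tunicamycin in BW35770, BW35772 and BW35773. It was higher in each pair, the groups overlapped, and it was not called (log2 fold change 0.38 ± 0.15 SE, edgeR adjusted p = 0.296). Tmub1 and Tmub2, ubiquitin-like membrane proteins, had opposite signs, at -0.31 ± 0.14 and 0.12 ± 0.11 SE on the log2 scale. Tmub1 is the only member whose treated libraries (34.7, 32.6 and 42.1 CPM) all lay below its controls (42.3, 47.3 and 45.7 CPM), and it was not called (edgeR adjusted p = 0.338). Erlin1 and Erlin2 form a ring-shaped complex that guides activated IP3 receptors to degradation. Erlin1 had the smallest ratio of highest to lowest control animal of all members (1.05, from 28.9 to 30.3 CPM), and lay between 29.5 and 32.1 CPM with tunicamycin. Erlin2 ranged from 21.1 to 26.3 CPM in controls and from 14.99 to 25.3 CPM with treatment, with differences of -0.26, 0.21 and -0.81 within the pairs.

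Summed over the 14 genes, the membrane ligase step took 942, 971 and 966 CPM in the controls of BW35770, BW35772 and BW35773 and 1172, 1306 and 1344 CPM in their treated libraries. Without Syvn1 and Sel1l the sums were 746, 720 and 695 CPM in controls and 739, 758 and 880 CPM with tunicamycin, and these ranges overlap.

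**Figure D2:**
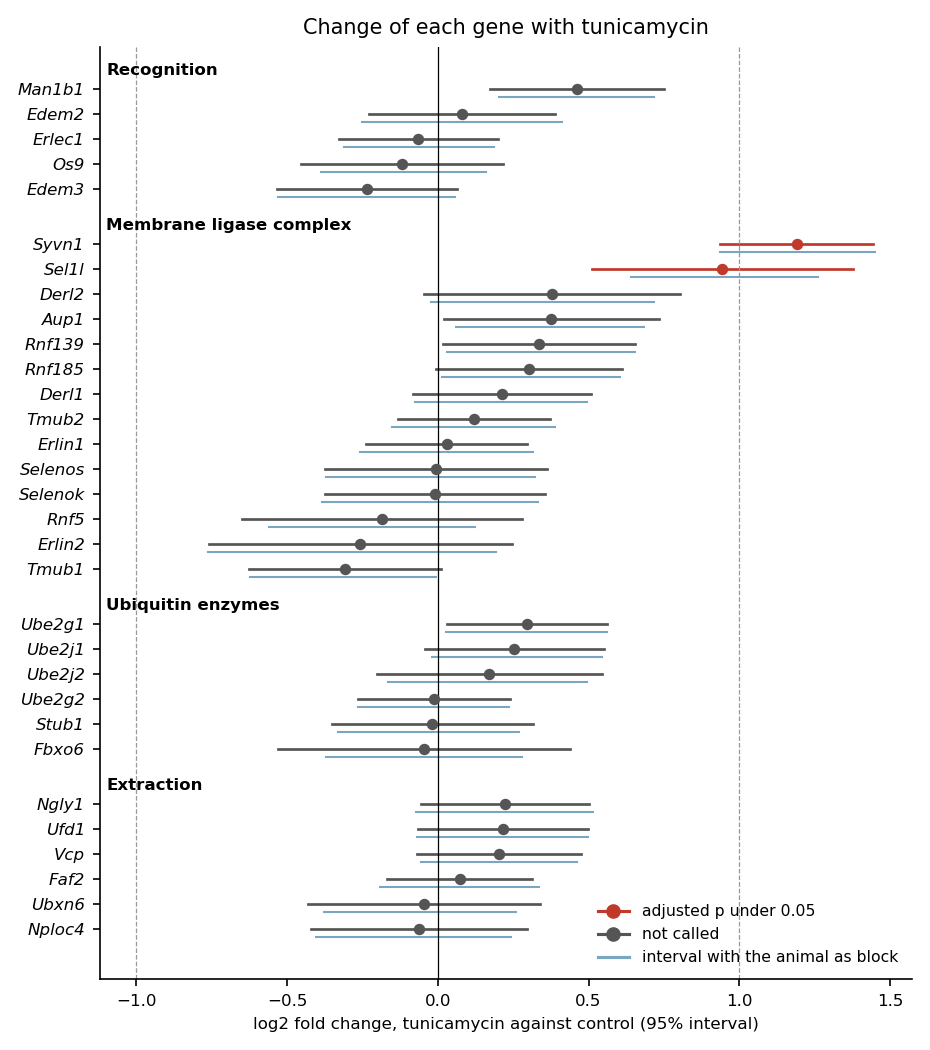
Log2 fold change of each ERAD gene, tunicamycin against control, with its 95% interval from edgeR (n = 3 animals), ordered within each step. Blue lines are intervals with the animal as block, and dashed lines mark a 2-fold change. The intervals of Syvn1 and Sel1l are the only ones that pass 1.

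In recognition edgeR called 0 of 5 genes, 1 of which had an unadjusted p under 0.05, and the median log2 fold change was -0.065. Man1b1, the ER mannosidase whose trimming starts the degradation signal, came nearest (ENSPEMG00000008520, scaffold KI615470.1, bases 1950735 to 1970465, minus strand, 13 exons). It was at 59.4, 62.6 and 69.6 CPM in the controls of BW35770, BW35772 and BW35773 and at 78.2, 91.6 and 93.8 CPM with tunicamycin. The groups did not overlap, and differences within the pairs were alike, at 0.40, 0.55 and 0.43. The log2 fold change of 0.46 ± 0.12 SE gave an edgeR adjusted p of 0.119, or 0.0610 with the replicate block, and Man1b1 was the third member that DESeq2 called (adjusted p = 0.0229).

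Of the mannosidase-like proteins of the EDEM family, which trim further, Edem2 and Edem3 were not called, and Edem1 was not analysed. Edem2 went from 37.7 ± 3.52 to 39.9 ± 3.76 CPM (SD, n = 3), and Edem3 from 58.6 ± 4.24 to 49.8 ± 5.61 CPM. Edem3 was lower in each pair, by -0.14, -0.12 and -0.45 on the log2 scale, and was not called (log2 fold change -0.23 ± 0.13 SE, edgeR adjusted p = 0.451). The lectins Os9 and Erlec1 bind trimmed glycans and dock on SEL1L. Os9 had a mean of 304.3 ± 41.0 CPM without and 280.3 ± 27.8 CPM under tunicamycin, and Erlec1 at 150.5 ± 13.1 and 143.8 ± 6.89 CPM. Neither was called, and their 95% intervals ended at a 1.16-fold and a 1.15-fold rise.

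Among ubiquitin enzymes edgeR called 0 of 6 and DESeq2 0, and 1 had an unadjusted edgeR p under 0.05, with a median log2 fold change of 0.079. Ube2j1, the ER-anchored conjugating enzyme that works with HRD1, was at 75.7, 63.8 and 58.4 CPM in controls and 79.1, 80.6 and 76.2 CPM with tunicamycin in the same order of animals. The groups were apart by less than 1 CPM, and the log2 fold change of 0.25 ± 0.13 SE was not called (edgeR adjusted p = 0.404). Its relative Ube2j2 had 0.17 ± 0.16 SE. Ube2g1 went from 88.9 ± 3.37 to 109.2 ± 10.5 CPM (SD, n = 3), also with groups apart (log2 fold change 0.30 ± 0.11 SE, edgeR adjusted p = 0.266). Ube2g2, the partner of AUP1, held 138.3 ± 6.26 CPM in controls and 137.2 ± 9.76 CPM with treatment, with a 95% interval of 0.83-fold to 1.18-fold. The cytosolic ligase Stub1 (CHIP), which joins ubiquitin to chaperone clients, had a log2 fold change of -0.019 ± 0.14 SE. Stub1 shares 690 exon bases with Jmjd8 on the opposite strand, which was not called either (edgeR adjusted p = 0.902). Fbxo6, an F-box protein that binds N-glycans in the cytosol, had the widest spread between control animals of all members as a ratio of highest to lowest (from 31.3 to 47.0 CPM), and a log2 fold change of -0.047 ± 0.21 SE.

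In extraction both edgeR and DESeq2 called 0 of 6 genes, 0 had an unadjusted edgeR p under 0.05, and the median was 0.14. Vcp encodes the p97 ATPase and was the most abundant member. It stood at 839, 794 and 806 CPM in the controls of BW35770, BW35772 and BW35773 and at 986, 897 and 926 CPM with tunicamycin. Its pairs differed by 0.23, 0.18 and 0.20 on the log2 scale and the groups were apart, yet the log2 fold change of 0.20 ± 0.12 SE was not called (edgeR adjusted p = 0.478). The interval ran from a 0.95-fold to a 1.39-fold level. Ufd1 and Nploc4, which together form the cofactor that guides VCP to ubiquitin chains, had log2 fold changes of 0.22 ± 0.12 and -0.062 ± 0.15 SE. Nploc4 differed by -0.32, 0.24 and -0.16 within the pairs. Faf2, which anchors VCP at the ER, was at 58.8 ± 2.28 and 61.8 ± 1.95 CPM, and the VCP cofactor Ubxn6 at 87.9 ± 9.25 and 85.2 ± 16.9 CPM (SD, n = 3). Ngly1, the glycanase that strips N-glycans from extracted proteins, was at 33.6, 30.8 and 31.9 CPM in controls and 35.3, 36.2 and 40.9 CPM with tunicamycin. It was higher in each pair and not called (log2 fold change 0.22 ± 0.12 SE, edgeR adjusted p = 0.443).

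Members differed widely in level. Per kilobase of annotated exon, control means ran from 8.70 ± 0.63 CPM per kb for Edem3 to 272.1 ± 7.78 for Vcp (SD, n = 3). Selenok came next at 241.1 ± 12.5 CPM per kb, a value that rests on an annotated model of 285 exon bases. The lectins Os9 and Erlec1 followed, at 115.6 ± 15.6 and 106.3 ± 9.24 CPM per kb, and Os9 was the higher in each of the 6 libraries, by a ratio of 1.01 to 1.14. Vcp lay far above Ufd1 (27.6 ± 1.66) and Nploc4 (30.7 ± 1.01). In controls Syvn1, at 19.5 ± 1.51 CPM per kb, lay below Derl1 at 45.8 ± 3.71, and with tunicamycin they stood at 44.6 ± 0.90 and 53.1 ± 5.91. At the low end Edem3, Erlin1 (9.38 ± 0.24), Ngly1 (11.1 ± 0.48), Rnf139 (11.2 ± 1.36) and Erlin2 (11.3 ± 1.36) lay close together, and the last 3 kept no one order across the control libraries.

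**Figure D3:**
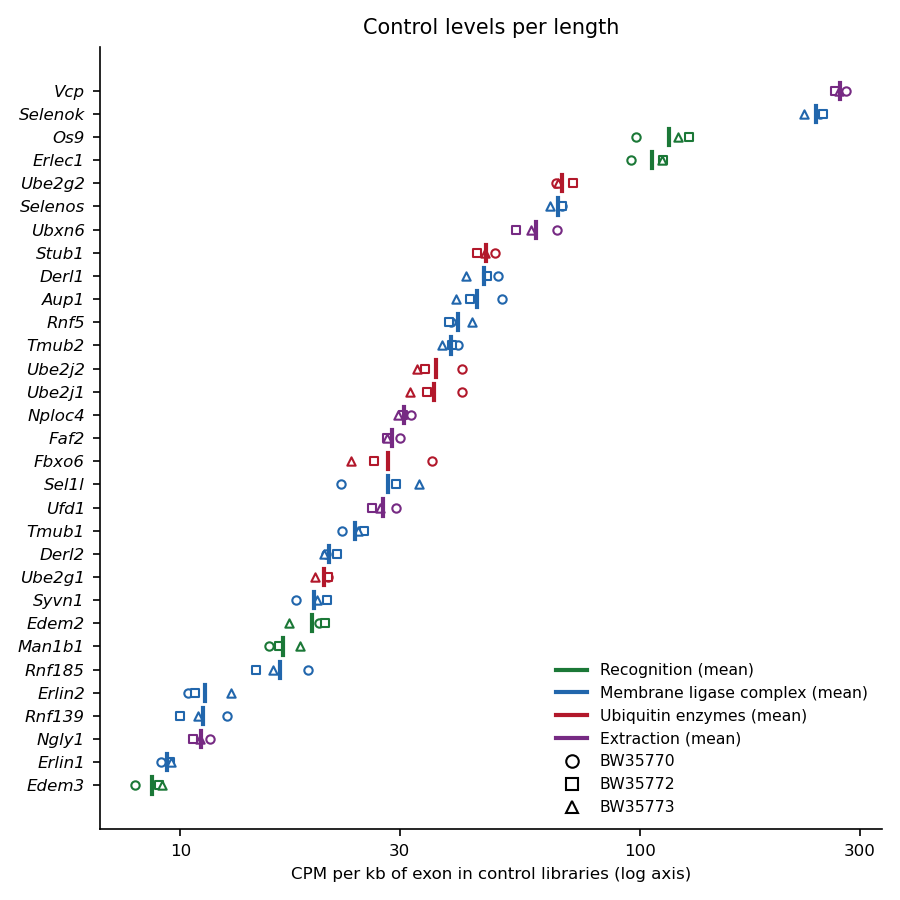
Level of the 31 ERAD genes in the 3 control libraries, in CPM per kb of annotated exon (log axis), ordered by mean. Symbols are animals and bars are means, coloured by step. Vcp and Selenok lead and Edem3 is lowest.

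Across animals, 14 members were higher with tunicamycin in all 3 pairs, beside 20.7% of all tested genes, and 2 members (Edem3 and Tmub1) were lower in all 3, beside 21.7%. Groups were apart with all treated libraries higher for 9 members (12.3% of all genes) and with all lower for 1 member (9.98% of all genes). The 9 were Syvn1, Sel1l, Man1b1, Rnf139, Rnf185, Ube2j1, Ube2g1, Vcp and Ngly1. In animals BW35770, BW35772 and BW35773 respectively, 19, 17 and 25 of the 31 members were higher in the treated library, while 46.5%, 47.6% and 49.4% of all genes were. The median member difference was 0.031, 0.15 and 0.27 on the log2 scale, in the same order.

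Pairs of different animals share no library. Over the 31 members, log2 differences of BW35770 and BW35772 had a Spearman rho of 0.70, those of BW35770 and BW35773 0.68, and those of BW35772 and BW35773 0.44. Without Syvn1 and Sel1l the values over the remaining 29 genes were 0.63, 0.61 and 0.32, and over all tested genes 0.55, 0.28 and 0.10. Genes within a library share its depth and composition, so these values are descriptions.

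Exon length moved with the differences in a way that changed between animals. Over the 31 members the rho of log2 difference with exon length was 0.35 in BW35770, 0.63 in BW35772 and -0.035 in BW35773, and over all tested genes it was 0.28, 0.33 and -0.23. Of the 14 members with fewer than 2000 exon bases (a limit chosen after the data were seen), 7, 4 and 12 were higher with tunicamycin in BW35770, BW35772 and BW35773, with medians of -0.032, -0.17 and 0.32. Of the 17 longer members 12, 13 and 13 were higher, with medians of 0.072, 0.23 and 0.25. Selenos, Selenok, Rnf5, Stub1, Fbxo6 and Ubxn6, all below that limit and named after their values were seen, had negative differences in BW35770 and BW35772 and positive ones in BW35773. Ube2g2, just above the limit at 2042 exon bases, had the same signs (-0.088, -0.048 and 0.095). The part of this trend in the uncalled differences was not tested.

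Removing each library's trend with exon length gave values of 1.15 ± 0.10 for Syvn1 and 0.87 ± 0.16 SE for Sel1l on the log2 scale (edgeR adjusted p = 0.00146 and 0.0282), so both calls held. Selenok moved from -0.010 to 0.25 ± 0.11 SE and was not called (edgeR adjusted p = 0.282). With the trend removed and the replicate block together, Man1b1 and Aup1 were also called, at log2 fold changes of 0.41 each (edgeR adjusted p = 0.0304 and 0.0369). That fit called 4 members higher, beside 5.39% of all genes higher and 5.57% lower.

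**Figure D4:**
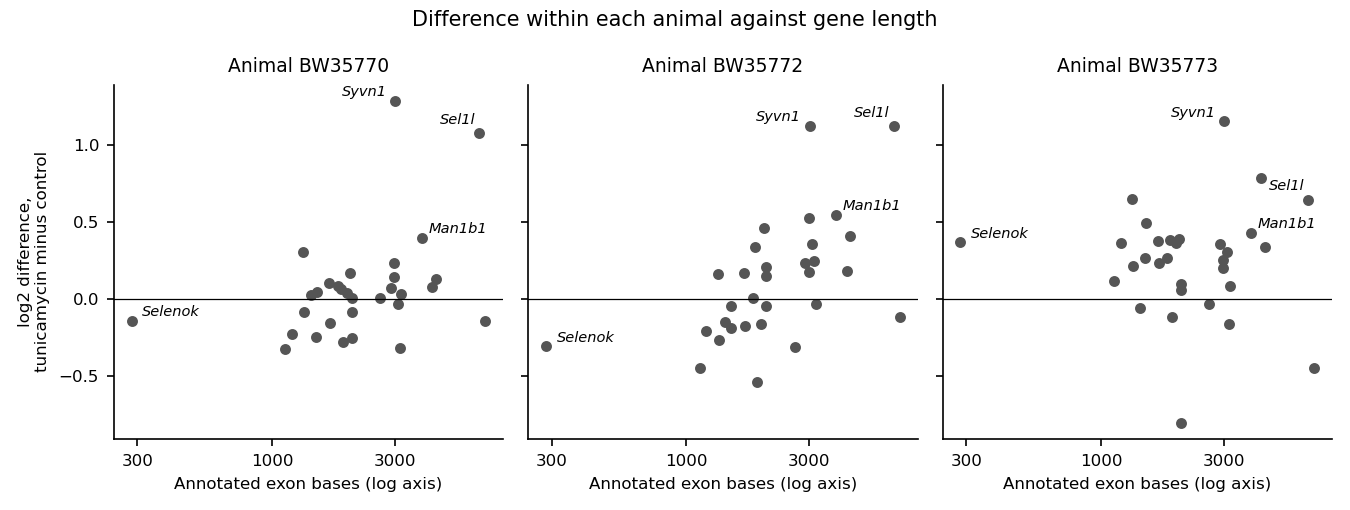
Log2 difference in CPM, tunicamycin minus control, of the 31 ERAD genes against annotated exon bases (log axis), with 1 panel per animal. Short genes lie mostly below 0 in BW35772 and mostly above 0 in BW35773, while Syvn1 lies above 1 in each panel.

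The rest of the pathway was read from a list of 61 symbols of other ERAD genes. The deposited table names only 49 of them, and 48 were tested. Of the 48 tested genes 3 rose and 0 fell, beside 1.78% and 0.792% of all tested genes. An unadjusted edgeR p under 0.05 was reached by 8 with higher and 3 with lower levels, beside the 8.88% and 6.64% of all genes. The median log2 fold change was 0.081. Those that rose were Hspa5, Dnajb9, a co-chaperone that delivers clients to BiP, and Txndc11, an ER thioredoxin that works with EDEM proteins. Hspa5 and Dnajb9 also served as the treatment check, so their calls are not separate from it. Dnajb9 went from 67.4 ± 11.8 to 394.9 ± 14.1 CPM and Hspa5 from 1510 ± 223 to 4189 ± 183 CPM (SD, n = 3), log2 fold changes of 2.55 ± 0.15 and 1.47 ± 0.16 SE (edgeR adjusted p = 0.000488 and 0.00512). Txndc11 was at 36.4, 41.8 and 37.4 CPM in the controls of BW35770, BW35772 and BW35773 and at 77.7, 68.6 and 71.4 CPM with tunicamycin (log2 fold change 0.91 ± 0.12 SE, edgeR adjusted p = 0.0111). Hsp90b1, the ER chaperone GRP94, was called with the block and in DESeq2 (log2 fold change 0.66 ± 0.13 SE, edgeR adjusted p = 0.0324, and 0.0620 without the block). Without the control of BW35773 the unpaired adjusted p was 0.0561 for Hspa5, and that of Txndc11 was 0.0562, 0.0520 and 0.0930 when the control of 1 animal was omitted, in the usual order of animals.

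At the end of the route, the deposited table names 27 of 35 listed symbols of the proteasome. All 27 were tested, with 0 higher and 1 lower, beside 1.78% and 0.792% of all tested genes. At an unadjusted edgeR p under 0.05 the counts were 0 and 2, beside 8.88% and 6.64% of all genes. The median log2 fold change was -0.089. The animals went different ways, with median differences of -0.20 in BW35770, -0.34 in BW35772 and 0.18 in BW35773. Most of these genes have fewer than 2000 exon bases. All tested genes that short had medians of -0.15, -0.21 and 0.099 in the same order of animals. The part of exon length in the proteasome values was not tested. The gene that fell was Psmd10, which encodes gankyrin, an assembly chaperone of the regulatory particle. It was at 28.1, 25.6 and 26.05 CPM in controls and 7.75, 8.96 and 14.5 CPM with tunicamycin in BW35770, BW35772 and BW35773. The groups did not overlap, and edgeR gave an adjusted p of 0.0347 for a log2 fold change of -1.35 ± 0.24 SE. Omitting 1 control ended the call whichever animal it came from (adjusted p = 0.123, 0.147 and 0.145 in edgeR), as did omitting the treated library of BW35770 (0.0949) or BW35772 (0.0851). With the block Psmd10 had an edgeR adjusted p of 0.0130, and Psma2, a subunit of the catalytic core, was also lower (log2 fold change -0.81 ± 0.17 SE, edgeR adjusted p = 0.0402, and 0.102 without the block).

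**Figure D5:**
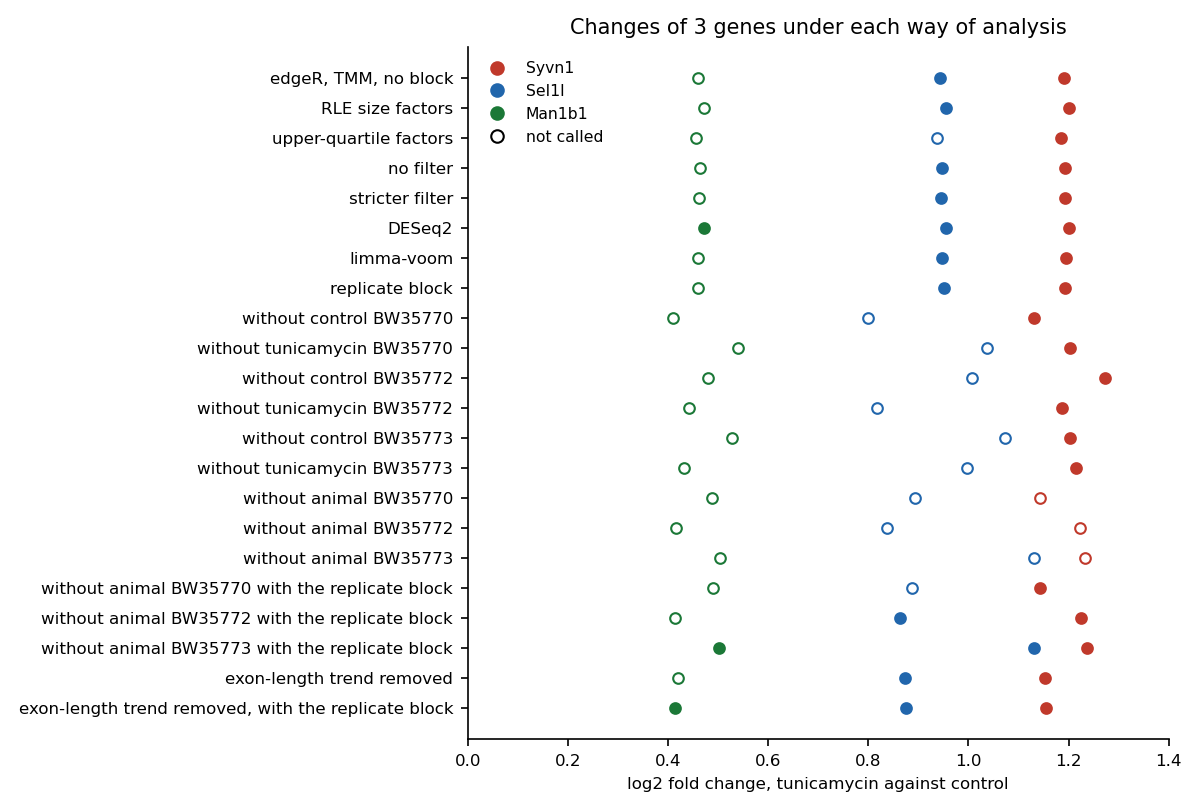
Log2 fold change of Syvn1, Sel1l and Man1b1 under each way of analysis, with filled symbols where the adjusted p was under 0.05. Syvn1 lies between 1.13 and 1.27 throughout, Sel1l between 0.80 and 1.13, and Man1b1 between 0.41 and 0.54.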

How the data were processed

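Per the submitters' processing notes, the tools were STAR 2.6.1, SAMtools 1.6 and featureCounts of the Subread package. The authors deposited 1 table of whole-number read counts per gene, with 1 column per library, whose title calls them strand-specific. The strand setting rests on that title and a directional kit per the labels. The sources used here do not give a genome build. Coordinates and exon bases are those of the table. The smallest chi-square per degree of freedom between libraries was 33.6, so no library copied another.

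Genes were kept by filterByExpr (minimum count 10, minimum total 15), which left 13503, and scaled by TMM. The edgeR 4.0.16 quasi-likelihood test in R 4.3.3 compared 3 tunicamycin with 3 control libraries, two-sided, with Benjamini-Hochberg adjustment over all tested genes and a threshold of 0.05. A gene is called, or said to have risen or fallen, only past that threshold. The SE is the size of the log2 fold change divided by the square root of F, and intervals cover 95%. Within-pair differences are of log2 CPM (prior count 2). The titles name the animal, so libraries of 1 animal are a pair. Deviations from group means correlated at 0.656, 0.408 and 0.217 within pairs, and a fit with the animal as block was run beside the main one. DESeq2 1.42.0 and limma-voom (limma 3.58.1), other scalings and filters, and omission of libraries were alternatives. Removal of a lowess trend with exon length was added after seeing the data. The fit was also run on simulated counts with the same dispersion for every gene and no animal pairing or length trend. That run cannot show how the fit handles those features, and its outcome is not used here.

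Named genes are all members in the table, Hspa5, Dnajb9 and Ddit3 as treatment check, genes of 2 further lists (other ERAD genes and the proteasome) called with or without the block, and the 2 other ERAD genes with the smallest p, which were among those called. Members and lists were chosen with earlier results of these data known. Genes are named by the table alone. Replicates are cultures of 3 animals. Sequences were not used here.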

Additional observations from a re-analysis of the deposited data

How the results depend on the processing

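Across 21 alternatives 633 of the members' values kept their side of the threshold, 14 lost a call, 4 gained one and 0 reversed a called direction. Most of these values belong to members not called in the main fit. Of the 2 called there, Syvn1 was called in 18 of the 21 alternatives and Sel1l in only 10, with an edgeR adjusted p of up to 0.312. Members called higher, 2 in all, numbered 1 with upper-quartile factors (Sel1l lost, edgeR adjusted p = 0.0556), 0 to 3 with a library or an animal left out, and 4 with the length trend removed and the replicate block. Calls over all genes moved too, from 241 higher and 107 lower to 728 and 752 in the last of these fits, and to 806 and 826 with the block without BW35773, where 3 members were called. With 1 library left out they numbered 46 to 313 higher and 15 to 251 lower. Without BW35770, BW35772 or BW35773 and without the block they fell to 39, 31 and 20 higher and to 21, 9 and 3 lower. These last fits are those that called 0 members. The replicate block alone left 2 and changed no member's call. Syvn1 lost its call only without both libraries of an animal in fits without the block (edgeR adjusted p = 0.0668, 0.0591 and 0.0878 without BW35770, BW35772 and BW35773). In those fits 4 libraries remain, and with the block it kept its call (0.0476, 7.26e-07 and 0.00198). Of 31 members 11, all with a log2 fold change within 0.26 of 0 and none called, had the other sign under at least 1 alternative.

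Other ERAD genes called higher, 3 in all, numbered 7 in DESeq2, beside 5.01% of all tested genes. With the length trend removed and the replicate block they numbered 5, beside 5.39%, and 1 to 6 with libraries or animals left out. The 6 came with the block without BW35773, the fit that called 806 genes higher and 826 lower. Other ERAD genes called lower numbered 2 under the length and block fit, beside 5.57% of all genes, and 0 to 2 with libraries or animals left out. Proteasome genes called, 1 in all, numbered 2 in DESeq2, with the replicate block, and with the length trend removed with or without the block. Over all genes DESeq2 called 676 higher and 401 lower, and the block fit 415 and 324. Removing the length trend gave 300 and 199 without and 728 and 752 with the block. Proteasome calls numbered 0 to 5 with libraries or animals left out, the 5 again with the block without BW35773. Over all genes the fits with libraries or animals left out called from 20 to 806 higher and from 3 to 826 lower. The cause of these changes was not tested. The smallest member count in any library was 601.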
